A study of Mus musculus with 12 samples.

Results

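The ASMM10SM1 probes are a class of probes on a 2-colour microarray that was used to split kidney RNA by its N6-methyladenosine (m6A) content. Every non-control probe whose name begins with ASMM10SM1 was taken, in all 6 array files, which gave 4087 of 60706 non-control probes, or 6.73%. Each of them is printed as 1 spot. In the files the field for a gene name repeats the probe identifier for each of the 4087 probes, so they are given here by identifier, and gene names and probe sequences were not used here. What the prefix stands for is not given in the sources used here. The ASMM10EP3A class, with 48057 probes the largest on the array, served as the comparison. Its probes were matched for signal only where like signal is stated. Detection, shares, counts of calls, probe-by-probe genotype differences and replicate spread were set against unmatched probes, although ASMM10SM1 probes were dimmer.

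The samples were kidneys from 6 mice (C57BL/6, male, 6 to 8 weeks old): 3 were wild type (WT), and in 3 the label gives a conditional Mettl3 knockout (METTL3-cKO, here cKO). The cells in which the gene was deleted are not named in the labels. All 6 animals had been injected intraperitoneally with glyoxylate, a precursor of oxalate that leads to calcium oxalate crystals in the kidney, once a day on 7 days (dose 100 mg/kg, volume 200 µl), so the WT animals carry the injury too. With an m6A antibody the total RNA of each kidney was divided into a bound, immunoprecipitated fraction (IP, dyed with Cy5) and the unbound supernatant (dyed with Cy3). Both fractions of a kidney lay on 1 array, which makes 12 samples on 6 arrays. Animals are biological replicates according to the labels, and 3 arrays per genotype limit the precision of every value. Values per array are given in the order of replicates 1, 2 and 3. Since the probes have no gene names here, tissue and genotype were taken from the labels, and kidney markers and Mettl3 itself were not analysed here.

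m6A is an internal mark of mRNA and of many non-coding RNAs. It is written by a complex in which METTL3 is the catalytic subunit and METTL14 holds the RNA, it can be removed by the demethylases FTO and ALKBH5, and proteins with a YTH domain bind it and affect the decay and translation of the RNA. An antibody against m6A binds RNA molecules that carry it, so log2 of IP over supernatant signal ranks probes by how much of their RNA was recovered with the antibody. Here that ratio was centred on the median of the probes kept on each array, so that 0 is the typical probe of that array. Dyes were not swapped, and recovery and a dye effect cannot be told apart in any single ratio.

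Detection was lower for ASMM10SM1 than for ASMM10EP3A probes in both channels, and the gap was wider in the IP channel. A probe counted as detected where the scanner software marked it as well above background. In the IP channel 38.8%, 39.6% and 41.8% of the ASMM10SM1 probes were detected in WT and 42.4%, 43.0% and 42.1% in cKO. The exact Clopper-Pearson 95% interval of the first share runs from 37.3% to 40.3%, and those of the others are as narrow. These intervals cover the counting of probes on an array only, not the spread between animals. ASMM10EP3A probes were detected in that channel at 55.1% to 59.2%, which is 14.4 to 16.7 percentage points more on the same array. The gap was thus about as large on every array.

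In the supernatant channel 35.6%, 49.7% and 32.1% of the ASMM10SM1 probes were detected in WT and 50.6%, 45.0% and 48.8% in cKO. WT arrays 1 and 3 were low, and WT array 2 lay within the range of the cKO arrays. These 2 low arrays were scanned together (scan 1), and WT array 2 was scanned with the 3 cKO arrays (scan 2). ASMM10EP3A probes showed the same split, with 40.2%, 54.6% and 33.2% in WT against 59.6%, 52.4% and 56.0% in cKO. The ASMM10SM1 class was lower by 1.12 to 9.01 percentage points on the same array. Of 15 negative control probes at most 1 was detected in a channel of an array.

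Probes seen in the supernatant alone made up a larger share of the ASMM10SM1 class, and probes seen in the IP alone a smaller one. Supernatant-only detection covered 4.65%, 12.7% and 3.43% of ASMM10SM1 probes in WT, against 1.15%, 5.41% and 0.578% of ASMM10EP3A probes. In cKO it covered 10.6%, 6.66% and 9.69%, against 6.55%, 2.80% and 5.28%. The ratio of the shares of the classes lay between 1.61 and 5.92 on the 6 arrays. IP-only detection covered 2.35% to 13.2% of ASMM10SM1 probes and 4.29% to 25.4% of ASMM10EP3A probes, and was lower in the ASMM10SM1 class on each array, at 0.367 to 0.548 of the other share.

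**Figure D1:**
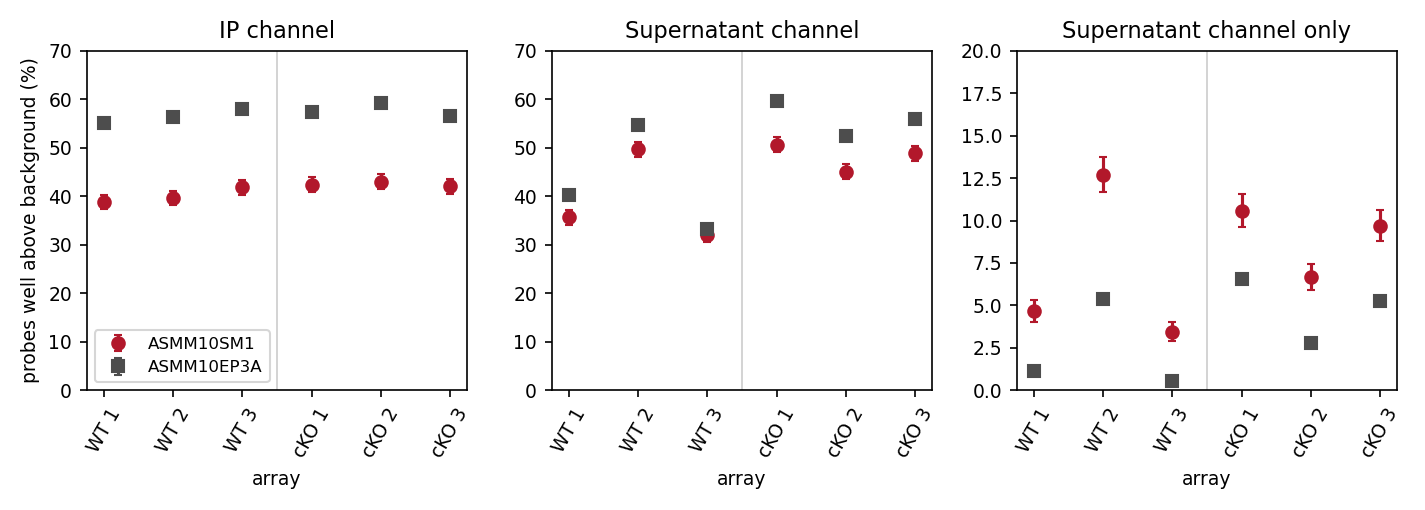
Share of probes well above background (percent, y axis) on each of the 6 arrays (x axis) for ASMM10SM1 and ASMM10EP3A probes, for the IP channel, for the supernatant and for probes seen in the supernatant alone; the y axis of the last panel ends at 20%, bars are exact 95% binomial intervals, and the grey line divides WT from cKO. ASMM10SM1 probes lie below ASMM10EP3A probes in the first 2 panels and above them in the last, on all 6 arrays. The bars cover the counting of probes only, not the spread between animals.

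Detection of a given ASMM10SM1 probe was mostly all or nothing over the arrays, as it was for ASMM10EP3A probes. In the IP channel 1379 of the 4087 probes (33.7%) were detected on all 6 arrays and 2053 (50.2%) on none. The supernatant channel gave 1252 (30.6%) and 1884 (46.1%). For ASMM10EP3A probes these shares were 49.1% and 34.9% in the IP channel and 32.0% and 37.6% in the supernatant channel. In either channel, 1729 probes (42.3%) were never detected, against 31.1% of ASMM10EP3A probes. Detection in the supernatant on all 6 arrays but in the IP on none was found for 55 ASMM10SM1 probes (1.35%), against 0.166% of ASMM10EP3A probes. The reverse pattern was found for 20 (0.489%), against 1.24%.

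Over all its probes, detected or not, the class was dimmer than ASMM10EP3A probes in both channels. Scanner brightness depends on how well each probe hybridises as well as on the RNA, so it is given as a property of the class and not as an amount of RNA. The median processed signal of the 4087 probes lay between 35.8 and 59.4 units in the IP channel over the 6 arrays, and between 43.2 and 114.1 units in the supernatant channel. For ASMM10EP3A probes the medians lay between 95.2 and 163.3 units and between 79.5 and 152.9 units. Among detected probes alone the order turned in the supernatant. ASMM10SM1 probes detected in the IP channel had medians of 311.8, 525.5 and 336.2 units in WT and of 390.3, 360.3 and 405.0 units in cKO, lower on each array than the 373.8, 599.3 and 410.6 units and the 443.8, 428.0 and 495.5 units of ASMM10EP3A probes. In the supernatant channel the medians were 756.3, 720.1 and 1252 units in WT and 441.5, 608.7 and 529.4 units in cKO. There they were higher on each array than the 654.6, 594.9 and 1032 units and the 404.1, 519.4 and 489.8 units of ASMM10EP3A probes.

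Dim signals were more common in the class. Over both channels and all arrays, 39.3% of ASMM10SM1 probes averaged between 4 and 5 on the log2 scale, the lowest values found, against 27.0% of ASMM10EP3A probes. Of the 100 brightest non-control probes 5 were ASMM10SM1 probes, and of the 1000 brightest 32 were, or 3.20%, while the class makes up 6.73% of all probes. No spot of the class was saturated.

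The brightest member was ASMM10SM1100129028, ninth of all non-control probes, with a mean processed signal of 388657 units in the IP and 152439 units in the supernatant channel. Its centred log2 ratio was 0.88, 2.14 and 1.41 in WT against 0.80, 1.48 and 1.32 in cKO. All 6 values lay above the array median, and the genotypes overlapped. ASMM10SM1100119831 came next, with ratios of 0.65, 1.31 and 0.76 in WT against 0.32, 1.15 and 1.03 in cKO. ASMM10SM1100153773 followed, with 0.63, 1.99 and 1.32 in WT against 0.44, 1.41 and 0.91 in cKO. For all 3 the highest ratio was that of WT array 2 and the lowest that of cKO array 1.

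Most ASMM10SM1 probes lay on the supernatant side of the array median. The ratio was followed for the 1531 probes (37.5% of the class) that were detected in both channels on at least 3 of 6 arrays. Their median centred log2 ratio was -0.79, -0.84 and -0.88 in WT against -0.42, -0.59 and -0.50 in cKO. The values of the genotypes did not overlap. The medians of ASMM10EP3A probes lay between 0.01 and 0.06 on the same arrays, and those of another class, ASMM10EP3B, between -0.01 and 0.10.

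A long lower tail went with that shift. A ratio below 0 was found for 78.8% ± 1.5 (SD, n = 3) of the ASMM10SM1 probes in WT and for 72.9% ± 2.8 (SD, n = 3) in cKO. Ratios under -2 were found for 23.1%, 23.1% and 25.9% in WT against 15.4%, 17.1% and 17.7% in cKO. Among ASMM10EP3A probes 5.60% to 8.03% were that low in WT and 3.77% to 4.30% in cKO. At the other end, 4.38% to 6.93% of ASMM10SM1 probes exceeded 1, against 15.8% to 26.2% of ASMM10EP3A probes.

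**Figure D2:**
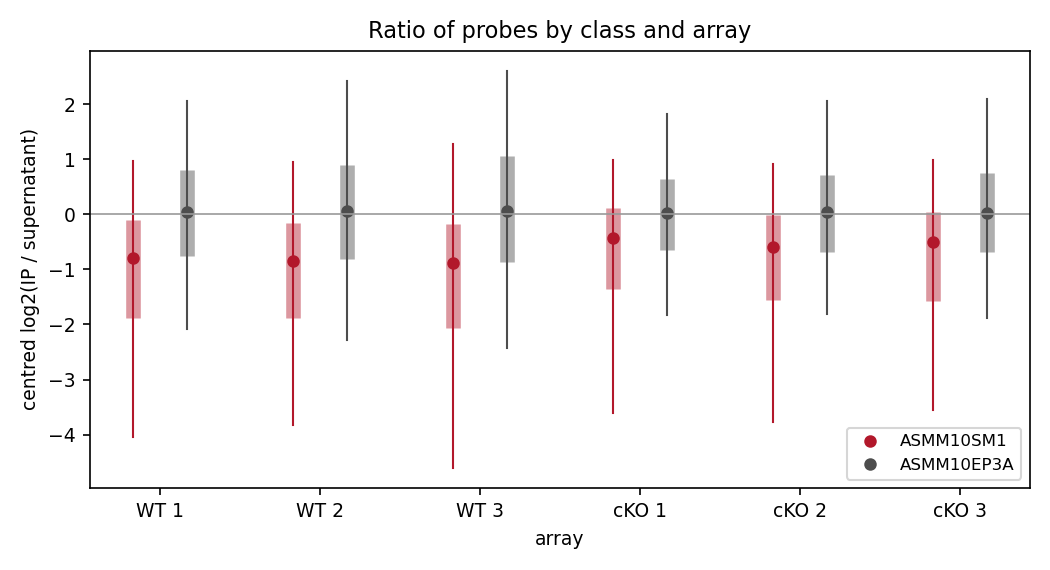
Centred log2 ratio of IP over supernatant signal (y axis) on each of the 6 arrays (x axis) for the ASMM10SM1 and ASMM10EP3A probes kept; points are medians, boxes span the middle 50% of probes and lines run from the 5th to the 95th percentile. ASMM10SM1 medians lie between -0.88 and -0.42 and ASMM10EP3A medians near 0.

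IP was compared with supernatant by limma's moderated test of the ratio against 0, fitted over all 28363 probes kept, at a Benjamini-Hochberg adjusted p of 0.05. In WT 983 of 1531 ASMM10SM1 probes (64.2%) were called below the array median, while 33.8% of all probes and 32.1% of ASMM10EP3A probes were. Above the median, 152 (9.93%) were called, against 33.2% of all probes and 34.7% of ASMM10EP3A probes. In cKO 770 (50.3%) were called below, against 29.8% of all probes and 28.8% of ASMM10EP3A probes. A further 147 (9.60%) were called above, against 28.5% of all probes and 29.4% of ASMM10EP3A probes. Of the calls of the class, 86.6% in WT and 84.0% in cKO were below. Both genotypes called 748 of the probes (48.9%) below and 118 (7.71%) above, against 25.2% and 25.9% of ASMM10EP3A probes. The probes called below in both are 76.1% of those called below in WT and 97.1% of those called below in cKO, beside 78.5% and 87.4% for ASMM10EP3A probes. In opposite directions 2 of 1531 ASMM10SM1 probes were called, against 50 of 23743 ASMM10EP3A probes.

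The lowest ratios among probes called in both genotypes and detected in both channels on all 6 arrays were those of ASMM10SM1100066852 and ASMM10SM1100021473. The first had centred log2 ratios of -6.87, -5.98 and -7.10 in WT against -6.39, -6.43 and -6.40 in cKO. Its mean processed signal was 377.7 units in the IP and 34614 units in the supernatant channel. ASMM10SM1100021473 had ratios of -6.92, -6.24 and -7.36 in WT against -5.84, -6.40 and -6.17 in cKO. Both lie far below the 5th percentile of the class, which was between -4.60 and -3.56, and in both the genotypes overlapped.

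At the upper end stood ASMM10SM1100145616 and ASMM10SM1100121589. Ratios of ASMM10SM1100145616 were 1.23, 2.11 and 2.22 in WT against 2.40, 2.11 and 2.17 in cKO. Those of ASMM10SM1100121589 were 1.47, 1.99 and 2.30 in WT against 1.01, 1.66 and 1.78 in cKO. The lowest members thus lie much farther from the array median than the highest. In limma's test against 0, the adjusted p of these 4 probes lay between 9.4e-07 and 5.1e-04.

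The ratio of the class was also lower than that of ASMM10EP3A probes of like signal. Probes were sorted into strata of 1 log2 unit by their mean signal over both channels and all arrays, and the ASMM10SM1 median was set against the ASMM10EP3A median of the same stratum and array. Averaged over the 12 strata by the number of ASMM10SM1 probes, the difference was -0.86, -0.95 and -0.96 log2 units in WT. In cKO it was -0.48, -0.66 and -0.58 log2 units. The means were -0.92 ± 0.06 (SD, n = 3) in WT and -0.57 ± 0.09 (SD, n = 3) in cKO. All 6 arrays lay below 0, and all 3 cKO arrays lay nearer to 0 than all 3 WT arrays. After normexp background correction, which adds an offset and pulls dim ratios towards 0, the means were -0.49 and -0.34, and their difference was 0.14 in place of 0.35.

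The size of the deficit varied with the signal. Between 7 and 12 on the log2 scale, the strata that hold 1337 of the 1531 probes, it went from -0.81 to -1.05 in WT and from -0.41 to -0.76 in cKO. It was widest between 12 and 13, with 59 ASMM10SM1 probes, at -2.18 ± 0.30 (SD, n = 3) in WT and -1.70 ± 0.29 (SD, n = 3) in cKO. The next stratum, 13 to 14, with 26 probes, had -1.94 ± 0.22 and -1.45 ± 0.10. From there on a stratum holds 16 probes or fewer. The stratum of 14 to 15 had -0.20 ± 0.23 in WT against -0.34 ± 0.16 in cKO, and the brightest, 17 to 18 with 5 probes, turned to 0.86 ± 0.54 and 0.45 ± 0.19. In 9 of the 12 strata the class was lower on all 6 arrays; the exceptions were the dimmest, that of 14 to 15 and the brightest.

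**Figure D3:**
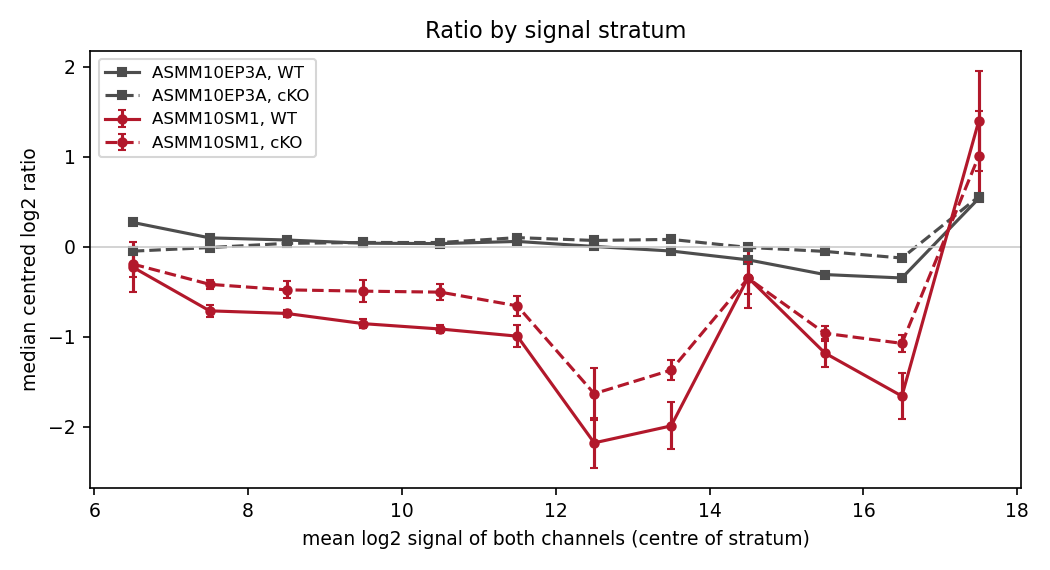
Median centred log2 ratio (y axis) by signal stratum (x axis, mean log2 processed signal of both channels, plotted at the centre of the stratum) for ASMM10SM1 and ASMM10EP3A probes in WT and cKO; points are means of 3 arrays and bars on the ASMM10SM1 lines are SDs. The ASMM10SM1 lines run below the ASMM10EP3A lines up to 17, widest between 12 and 14, and the cKO line lies above the WT line in most strata.

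Genotypes were then compared probe by probe, to ask whether loss of Mettl3 went with a change of the ratio or of either fraction in this class. In bulk kidney RNA, fewer cells of a type and less RNA per cell cannot be told apart. No ASMM10SM1 probe passed the threshold in limma's test with Benjamini-Hochberg adjustment, out of 1531 tested for the ratio, 1720 for IP and 1926 for supernatant. Over all probes 0.00353%, 0.104% and 0.225% were called in these 3 comparisons. At an unadjusted p under 0.05 the ratio gave 284 ASMM10SM1 probes (18.6%, against 16.8% of all probes), IP 107 (6.22%, against 11.8%) and supernatant 182 (9.45%, against 10.3%). In total the class was thus near or below the share of all probes.

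The ratio of the class was shifted towards higher values in cKO. The median difference of cKO minus WT was 0.33 log2 units over the 1531 probes, and 18.5% of them had a difference below 0. ASMM10EP3A probes had a median of 0.00 with 50.0% below 0, and all probes a median of 0.03. The 2 genotypes did not overlap, with cKO higher, for 440 ASMM10SM1 probes (28.7%), against 14.0% of all probes. With cKO lower the count was 27 (1.76%), against 10.3%. At an unadjusted p under 0.05, 263 (17.2%) were higher in cKO, against 8.99% of all probes, and 21 (1.37%) were lower, against 7.83%. No test of the class as a whole was run, and the shift is a description of these 6 arrays. Of the 1531 probes, 184 were kept through detection on all 3 cKO arrays and at most 1 WT array, and 3 through the reverse. Of 23743 ASMM10EP3A probes these counts were 3770 and 18. Among the 1061 probes detected in both channels on all 6 arrays the median difference was 0.25, against -0.03 for ASMM10EP3A probes. The 1531 probes had a median difference of 0.07 after normexp, against -0.02 for ASMM10EP3A probes, and of 0.11 after normexp, loess and Aquantile, against 0.00. Without the filter on dim probes, the median over all 4087 ASMM10SM1 probes was 0.05 with 41.8% below 0, against -0.10 for ASMM10EP3A probes.

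The width of the ratio distribution moved with genotype as well. Over all probes kept, the interquartile range of the ratio was 1.59, 1.72 and 1.94 log2 units in WT and 1.30, 1.41 and 1.43 in cKO. Divided by that range, the ASMM10SM1 minus ASMM10EP3A difference at like signal was -0.54, -0.55 and -0.50 in WT against -0.37, -0.47 and -0.40 in cKO. The genotypes still did not overlap on that scale. When ASMM10EP3A probes of like signal and also of like mean ratio were used, the difference between cKO and WT was 0.18 log2 units in place of 0.35 over the 1442 ASMM10SM1 probes that could be compared so. Its means were -0.16 in WT and 0.019 in cKO, levels that the match on the ratio itself draws towards 0. Both of these measures were added after the data were seen.

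Within bins of like mean ratio, the median ratio difference of the ASMM10SM1 class was above that of ASMM10EP3A probes by varying amounts. Among probes with a mean ratio between -4 and -3 or lower, 130 ASMM10SM1 probes had a median ratio difference of 0.46 and 272 ASMM10EP3A probes of 0.45. Between -3 and -2 the medians were 0.61 and 0.47, and between -2 and -1 they were 0.41 and 0.31. Between -1 and 0 the medians were 0.32 for 610 ASMM10SM1 probes and 0.10 for 7173 ASMM10EP3A probes. Between 0 and 1 they were 0.07 for 290 ASMM10SM1 probes and -0.11 for 7813 ASMM10EP3A probes. Between 1 and 2 they were -0.09 and -0.27, and at 2 and above, with 10 ASMM10SM1 probes, -0.29 and -0.31. The medians were thus close in the outermost bins and farther apart in the bins between them.

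Within scan 2, which holds WT array 2 and all 3 cKO arrays, the median ratio difference of the ASMM10SM1 class was 0.23 log2 units with 29.8% of probes below 0, against -0.03 for ASMM10EP3A probes. The difference at like signal was 0.38 there and 0.35 over all arrays. Scan 1 holds WT arrays only, so the WT side within scan 2 is WT array 2 alone. The comparison within scan 2 was also added after the data were seen.

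Most of that shift lay in the supernatant. Over the 1926 ASMM10SM1 probes kept there, the median supernatant difference was -0.21 log2 units with 71.8% of probes below 0, against 0.01 with 48.7% for ASMM10EP3A probes and -0.00 for all probes. The genotypes did not overlap, with cKO lower, for 416 (21.6%), against 7.23% of all probes, and with cKO higher for 37 (1.92%), against 9.36%. At an unadjusted p under 0.05, 154 (8.00%) were lower in cKO, against 3.17% of all probes, and 28 (1.45%) were higher, against 7.09%. Of the 1926 probes, 300 were kept through detection on all 3 cKO arrays and at most 1 WT array, and none through the reverse. Of 25859 ASMM10EP3A probes these counts were 4935 and 7. Among probes detected in the supernatant on all 6 arrays the median difference was -0.28, against -0.07 for ASMM10EP3A probes. With signals scaled to the median in place of the 75th percentile the median of all probes moved to -0.24 and that of the class to -0.45, so the class stayed 0.21 below. After normexp the median of the class was -0.10, and -0.05 with loess and Aquantile added, against -0.02 and 0.01 for ASMM10EP3A probes. Within scan 2 the medians were -0.23 for ASMM10SM1 and -0.02 for ASMM10EP3A probes.

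In the IP channel the class hardly moved. The median difference over 1720 ASMM10SM1 probes was 0.03 log2 units, with 44.7% below 0, against -0.02 for ASMM10EP3A probes, and its sign turned under 3 alternatives (normexp with loess, no filter on dim probes, and leaving out WT array 1). The genotypes did not overlap, with cKO higher, for 108 (6.28%), against 6.89% of all probes, which is near the background. With cKO lower the count was 50 (2.91%), against 10.7%. At an unadjusted p under 0.05, 81 (4.71%) were higher in cKO, against 4.71% of all probes, and 26 (1.51%) were lower, against 7.12%. Set against ASMM10EP3A probes of like signal, the IP signal of the class was higher in cKO than in WT by 0.11 log2 units and the supernatant signal was lower by 0.25. These values at like signal were also added after the data were seen.

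**Figure D4:**
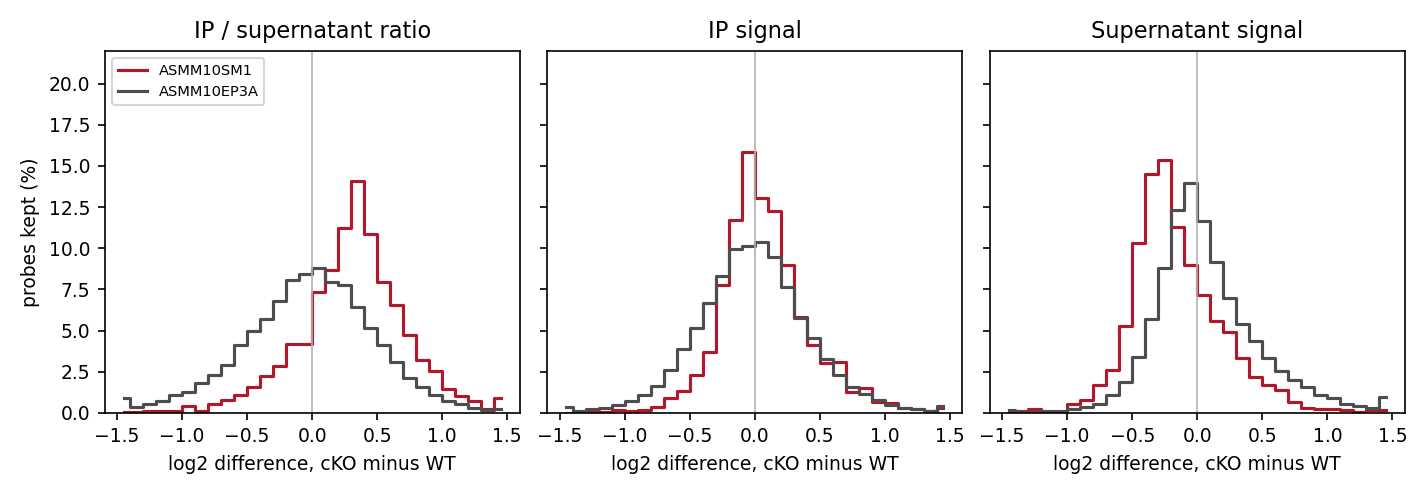
Percent of probes kept (y axis) by their log2 difference of cKO minus WT (x axis, bins of 0.1, the outermost bins holding all values beyond) for ASMM10SM1 and ASMM10EP3A probes, for the IP over supernatant ratio, the IP signal and the supernatant signal. The ASMM10SM1 curve lies to the right of the ASMM10EP3A curve for the ratio (medians 0.33 and 0.00) and to the left for the supernatant (medians -0.21 and 0.01), and the peaks lie near 0 for the IP.

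Single probes were named by smallest p among those whose genotypes do not overlap, with at most 2 in each direction; none of them passed the threshold. For the ratio, ASMM10SM1100121046 had centred log2 ratios of -0.62, -1.17 and -1.20 in WT against 0.70, 0.76 and 0.30 in cKO. All WT values lie below the array median and all cKO values above it. Its difference was 1.58 ± 0.26 (SE), with a limma adjusted p of 0.0849. It was detected in both fractions on all 3 cKO arrays and in each fraction on 2 of 3 WT arrays. ASMM10SM1100003336 had ratios of -4.03, -4.17 and -3.85 in WT against -2.72, -2.44 and -2.86 in cKO, all far on the supernatant side. The difference was 1.35 ± 0.22 (SE), adjusted p = 0.0904 by limma. After normexp these differences were 0.52 and 0.22.

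In the other direction, ASMM10SM1100026294 had ratios of 1.15, 0.04 and 1.29 in WT against -0.64, -0.37 and -0.59 in cKO. WT array 2, which shares the scan with the cKO arrays, lies nearest to them. The difference was -1.36 ± 0.34 (SE), adjusted p = 0.165 by limma. ASMM10SM1100034074 had ratios of 1.15, 0.34 and 1.06 in WT against -0.12, -0.84 and -0.17 in cKO, a difference of -1.23 ± 0.31 (SE) with an adjusted p of 0.166 by limma. For both, the supernatant signal was well above background on all 3 cKO arrays but on 1 of 3 WT arrays. After normexp their differences were -0.020 and -0.14, and within scan 2 they were -0.58 and -0.72.

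In the IP fraction, signals are log2 values relative to the 75th percentile of the array. ASMM10SM1100159008 had IP signals of -2.46, -2.91 and -2.87 in WT against -0.95, -1.35 and -1.09 in cKO. The difference was 1.62 ± 0.23 (SE), adjusted p = 0.0568 by limma, the smallest of the class in any of the 3 comparisons. IP detection covered 1 WT array and all 3 cKO arrays. ASMM10SM1100057815 had -2.68, -2.37 and -2.38 in WT against -1.72, -1.29 and -1.55 in cKO, a difference of 0.96 ± 0.22 (SE) with an adjusted p of 0.18 by limma. After normexp these differences were 0.24 and 0.20.

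Lower IP signals in cKO were led by ASMM10SM1100080649, with -1.26, -1.41 and -1.61 in WT against -2.27, -2.43 and -2.29 in cKO. Its difference was -0.90 ± 0.21 (SE), adjusted p = 0.177 by limma. ASMM10SM1100121244 followed with 1.58, 1.30 and 1.76 in WT against 0.69, 0.63 and 0.88 in cKO, a difference of -0.81 ± 0.22 (SE) with an adjusted p of 0.25 by limma. After normexp they were -0.26 and -0.54. Both were detected in both fractions on all 6 arrays.

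In the supernatant fraction, ASMM10SM1100107560 had signals of 1.23, 1.34 and 1.35 in WT against -0.33, 0.15 and 0.28 in cKO. The WT values lie close together, and each cKO value is lower than all of them. Its difference was -1.27 ± 0.22 (SE), adjusted p = 0.0785 by limma. ASMM10SM1100043587 had 1.03, 1.14 and 1.34 in WT against -0.50, -0.02 and 0.17 in cKO, a difference of -1.29 ± 0.24 (SE) with an adjusted p of 0.0916 by limma. Both passed the threshold under 2 of the alternatives, the filter on all 6 arrays and limma with trend and robust variance. After normexp the differences were -0.60 and -0.59. The IP signals of these probes differed by 0.14 and -0.18, with limma adjusted p of 0.863 and 0.824.

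Higher supernatant signals in cKO were led by ASMM10SM1100148134 and ASMM10SM1100060535. ASMM10SM1100148134 had -2.47, -1.94 and -2.78 in WT against -1.72, -1.40 and -1.42 in cKO, a difference of 0.88 ± 0.26 (SE) with a limma adjusted p of 0.262. For ASMM10SM1100060535 the values were -2.11, -2.08 and -1.52 in WT against -1.14, -1.06 and -1.19 in cKO, a difference of 0.77 ± 0.23 (SE) with a limma adjusted p of 0.262. For each, supernatant detection covered 1 WT array and all 3 cKO arrays, and after normexp background correction neither difference remained positive. With loess and Aquantile added to normexp both were positive, at 0.13 and 0.088. Within scan 2 the difference of ASMM10SM1100148134 was 0.43 and that of ASMM10SM1100060535 was 0.94.

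**Figure D5:**
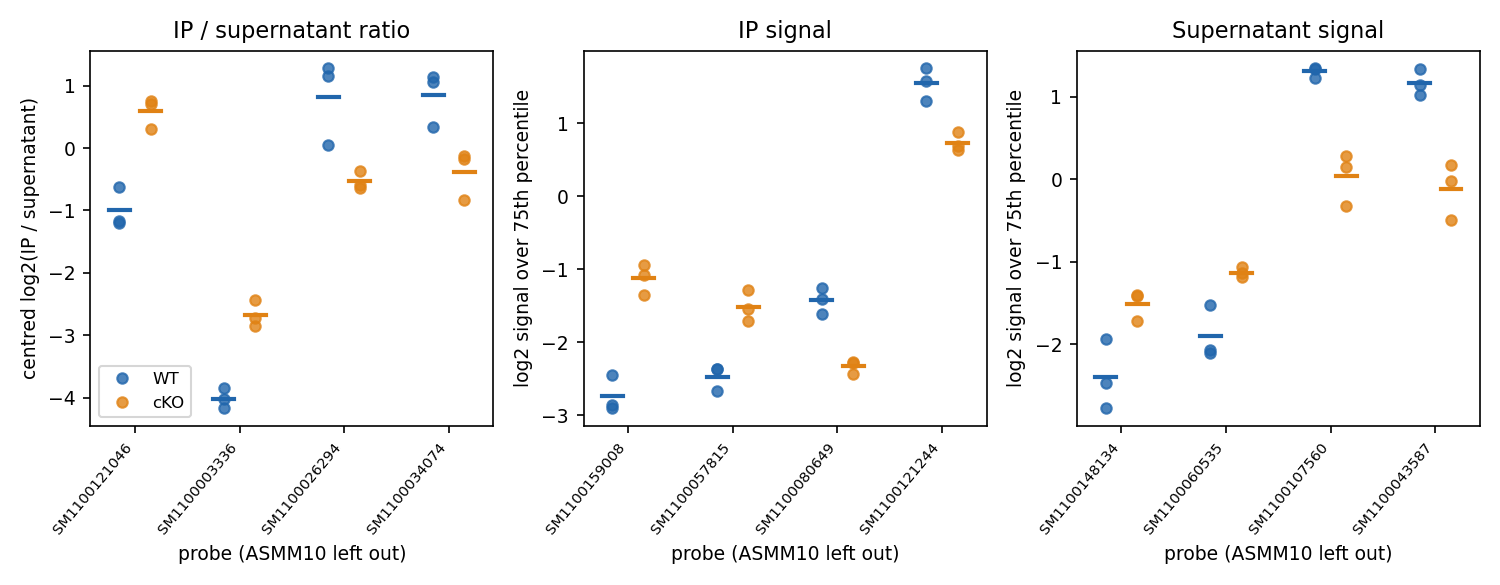
Values on each array (points) and their means (bars) in WT and cKO for the 4 probes named in each comparison (x axis, identifiers without the leading ASMM10); the y axis gives the centred log2 ratio in the first panel and the log2 signal relative to the 75th percentile of the array in the others. The genotypes do not overlap for any of the 12, by the rule that chose them, and none passed an adjusted p of 0.05.

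The spread between replicates did not set the class apart. The median SD of the ratio over 3 arrays was 0.34 log2 units in WT and 0.25 in cKO for ASMM10SM1 probes, and 0.35 and 0.26 for ASMM10EP3A probes. The class is spread over the whole array, with 998 to 1048 probes in each of 4 equal bands of columns and 1018 to 1026 in each of 4 bands of rows. The median ratio of the bands lay between -0.75 and -0.51. Over 4086 pairs that follow each other in the order of the identifiers the mean signal had a Pearson r of 0.06 and a Spearman rho of 0.09, and over 633 pairs the ratio had an r of 0.15 and a rho of 0.12, as a description across probes that share the same arrays. Identifiers that differ by 1 gave an r of 0.43 and a rho of 0.47 for the ratio over 24 pairs, and an r of 0.01 and a rho of 0.06 for the signal over 123 pairs.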

How the data were processed

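The deposited intensity values of both channels were made with Agilent Feature Extraction 11.0.1.1, per the file headers. Processed signals, which the software had background-subtracted and dye-normalised, were used, and control spots and outlier spots were left out. From there R 4.3.3, limma 3.58.1 and the package data.table, version 1.17.8, were used. Ratios are log2 of Cy5 over Cy3, centred on the array's median over all probes kept, without loess. The signals of a fraction are log2 values minus the array's 75th percentile. Probes had to be well above background on 3 or more of the 6 arrays to be kept (for the ratio in both channels, for a fraction in its own). The genotype comparison used limma (lmFit, eBayes) over all probes, two-sided, with Benjamini-Hochberg adjustment over all of them. Signal strata needed at least 5 probes of each class. Scripts were tested on simulated data.

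The members, lists and rules were chosen with earlier results of these data known. By rule, at most 2 probes per direction and comparison are named, by smallest p where none passed, among probes well above background on at least 1 array of each genotype and with genotypes that do not overlap, plus the 2 highest and 2 lowest ratios and the 3 brightest probes. Arrays were not paired by replicate number in the main test. Deviations from the genotype mean were correlated over probes between WT and cKO arrays. For like replicate numbers, Pearson r was 0.33, 0.27 and 0.081 for the ratio and 0.10, 0.26 and 0.073 for IP. For other pairs r ran from -0.29 to 0.078 and from -0.20 to 0.085. In the supernatant r was -0.11, 0.17 and -0.09 for like numbers and -0.10 to 0.18 for others. Alternatives were other background corrections (normexp with an offset of 50, run on median spot signals), scalings, filters, strata, blocks and leaving out each array.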

Additional observations from a re-analysis of the deposited data

Results flagged for a closer look

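For 3 of the named probes the ratio lay on opposite sides of the array median in the genotypes, in all 3 arrays of each. Their genotypes do not overlap by the rule that chose them, so the separation is no added support. The share of all probes with this pattern is not given here. ASMM10SM1100121046 was below the median in WT and above it in cKO, with a difference of 1.58 log2 units. ASMM10SM1100026294 was above it in WT and below it in cKO, with a difference of -1.36, and so was ASMM10SM1100034074, with a difference of -1.23. Limma's adjusted p values of these differences over all 28363 probes were 0.0849, 0.165 and 0.166, so none passed the threshold of 0.05. After normexp background correction the differences were 0.52, -0.020 and -0.14, and within scan 2 they were 1.76, -0.58 and -0.72. For ASMM10SM1100026294 and ASMM10SM1100034074 the supernatant signal was well above background on 1 of 3 WT arrays and on all 3 cKO arrays. The lowest WT ratio of ASMM10SM1100026294 was 0.04, close to the array median.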

How the results depend on the processing

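No ASMM10SM1 probe was called between genotypes under most alternatives. For the ratio 1 was called after normexp, loess and Aquantile, and 2 with the filter on all 6 arrays. The IP signal gave 1 after normexp, and the supernatant signal 2 with the filter on all 6 arrays and 2 with trend and robust variance. With the replicate block and without each array in turn the count was 0 for all 3. Within scan 2, or with the scan as a block, the genotype difference rests on 1 WT array, so no count is given. IP against supernatant called 1135 probes in WT and 917 in cKO, of 1531 tested. Over the alternatives the counts ranged from 812 to 1333 and from 699 to 1258. The lowest counts came with the filter on all 6 arrays (1061 tested) and the highest without a filter on dim probes (4087 tested). When each array was left out they ranged from 1029 to 1121 and from 709 to 946. The ratio at like signal, -0.92 in WT, -0.57 in cKO and 0.35 for their difference, kept its sign except in strata that also match the ratio. It became -0.49, -0.34 and 0.14 after normexp, and -0.48, -0.34 and 0.14 after normexp, loess and Aquantile. Strata from the IP channel gave -0.87 in WT, strata from the supernatant channel -0.98 in WT and -0.66 in cKO, and the filter on all 6 arrays -0.85 in WT. Divided by the array's interquartile range it was -0.53, -0.41 and 0.12, and in strata of like signal and like ratio -0.16, 0.019 and 0.18. Without each array in turn it ranged from -0.98 to -0.91, from -0.62 to -0.53 and from 0.31 to 0.40. The IP difference at like signal, 0.11, was 0.047 after normexp and 0.045 with loess and Aquantile, and the supernatant difference, -0.25, was -0.076 and -0.079. The positive and significant mark in place of well above background raised mean detection to 63.1% (WT) and 65.7% (cKO) in the IP, from 40.1% and 42.5%, and to 58.9% and 69.0% in the supernatant, from 39.1% and 48.2%. After normexp the supernatant difference of ASMM10SM1100148134 was -0.024 and that of ASMM10SM1100060535 -0.0045. All 12 differences of probes named between genotypes moved by over 1.5 times after normexp, to sizes of at most 0.60, and 11 of them did with loess and Aquantile added. Within scan 2 or with the scan as a block 3 did, and these alternatives gave the same differences. With the filter on all 6 arrays only 4 of the 12 could be compared, and none of them moved by that much. Under the remaining alternatives run none of the 12 did. Counting all values of named probes under the alternatives, also those that moved in size, 282 kept direction and side of the threshold. Some of these could not turn direction. The replicate block and the trend and robust variance left the named differences unchanged. A ratio within a genotype does not change when an array of the other genotype is left out. Direction turned for 2, and 4 passed the threshold newly. The cause of these changes was not tested. Dim signals limit the class: 42.3% of its probes were never well above background.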
